A study of Mus musculus with 6 samples.

Results

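S100 proteins and galectins were followed here at the RNA level in mouse embryonic fibroblasts (MEFs), connective tissue cells grown from mouse embryos. The genes are S100a1, S100a4, S100a6, S100a10, S100a11, S100a13, Lgals1, Lgals3, Lgals8 and Lgals9. These were listed by name and not by a threshold on their values, but with earlier results of these data known. They are 10 of the 56953 genes in the table, and all 10 passed the filter on low values. Each was found by its Ensembl identifier, whose symbol was read from the GENCODE M39 annotation of the mouse genome build GRCm39.

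The study compared WT MEFs with MEFs lacking Gαq, a G protein subunit that couples cell surface receptors to phospholipase C, to learn how its loss alters fibroblast traits. The first group was 3 libraries of genotype WT, and the second was 3 libraries labelled GαqKO, which the methods describe as cells lacking both Gαq and Gα11. All were untreated and grown in DMEM with fetal bovine serum, penicillin and streptomycin. The age of the embryos was not given in the sources used here. The replicates within a genotype are stated to be biological, but each genotype appears as a single named line, so line and genotype cannot be told apart.

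S100 proteins are small proteins with paired EF-hand motifs, most of which bind calcium and then dock onto target proteins such as annexins, myosins and ion channels. Several also leave the cell and bind surface receptors, RAGE (Ager) among them. Galectins are lectins that bind β-galactoside sugars on glycoproteins. Outside the cell they crosslink integrins and matrix proteins, and inside it they bind glycans exposed on the inner face of broken lysosomes. In fibroblasts, the S100a4 product is widely known as fibroblast-specific protein 1, and galectin-1 is among the abundant secreted lectins.

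The values are normalized counts, which are the reads of a gene divided by 1 size factor per library. They summed to between 11392429 and 11483486 per library. Reads could be recovered from the values of 5 libraries, with 9853000 to 12229175 reads on genes in each. Gna11 fell from 2148 ± 29.0 to 451.6 ± 28.7 normalized counts (n = 3, SD), but Gnaq, the gene of Gαq itself, had 1691 ± 48.5 in WT and 1926 ± 36.0 in the libraries labelled GαqKO. Gnaq was thus higher by 0.19 on the log2 scale (adjusted p = 0.00212, limma), so every direction below is drawn from the labels. The paper reports the loss of Gαq in its GαqKO MEFs from Western blot and immunofluorescence. Those methods measure protein, which RNA counts do not.

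The cells were checked against marker lists. Of 13 fibroblast markers, 11 were tested, of which 7 were higher and 4 lower in GαqKO, and Fap and Lum were at or near 0 in all 6 libraries. Pdgfra rose from 19.6 ± 2.23 to 2320 ± 42.0 normalized counts and Dcn from 32.1 ± 3.00 to 1663 ± 53.8 (n = 3, SD), while Prrx1 and Twist2 rose by 1.90 and 1.62 on the log2 scale. The 4 that were lower were the abundant collagen genes Col1a1, from 16671 ± 1168 to 5775 ± 272 (n = 3, SD), Col1a2 and Col3a1, and the filament gene Vim. The summed level of 10 epithelial markers was 1053 to 1155 normalized counts in the WT libraries and 33.2 to 56.7 in GαqKO, with Krt14, Krt19 and Cdh1 lower and Epcam, Krt5 and Cldn4 near 0 in both groups. Krt14, Krt19 and Cdh1 would not have passed the filter on their GαqKO values alone. The summed level of 10 macrophage markers was 244.3 to 266.2 in WT and 466.7 to 485.6 in GαqKO. Cd14 was higher, at 101.7 ± 7.01 against 364.5 ± 3.21, and Cd68 lower, at 93.0 ± 9.91 against 66.9 ± 12.7 (n = 3, SD), whereas Itgam and Tyrobp were listed at 0 in every library and Adgre1 and Ptprc were near 0. The 8 neutrophil markers summed to at most 5.63 normalized counts in any library, the 8 endothelial markers to at most 45.1, and the 8 glial or melanocyte markers to 121.1 to 142.8 in WT and 310.8 to 355.5 in GαqKO, where Mitf was higher. These marker levels move with the groups, and their part in the results below was not tested. In bulk RNA, fewer cells of a type and less RNA per cell cannot be told apart.

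The 2 gene families did not move as a block. Against WT, 6 of the 10 genes were higher in GαqKO (S100a4, S100a6, S100a10, Lgals1, Lgals3 and Lgals9), 3 were lower (S100a1, S100a11 and S100a13), and Lgals8 did not pass the test (limma, adjusted p under 0.05). That is 9 of 10 called, beside 65.8% of the 14096 genes tested (31.8% of the tested genes higher and 34.1% lower). Because the 10 genes were chosen with earlier results of these data known, such shares are set side by side without a test. The median log2 fold change of the 10 genes was 0.45, beside -0.012 over all genes tested. Past the study's fold threshold, a log2 fold change over 1 or under -1, were S100a4 upward and S100a1 and S100a13 downward, 3 of 10 beside 20.7% of all genes tested (10.2% upward and 10.5% downward). S100a1 and S100a13 share exon bases, so in these counts they cannot be taken as separate measurements. The WT and GαqKO values of all 10 genes did not overlap, as was so for 69.6% of all genes tested.

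**Figure D1:**
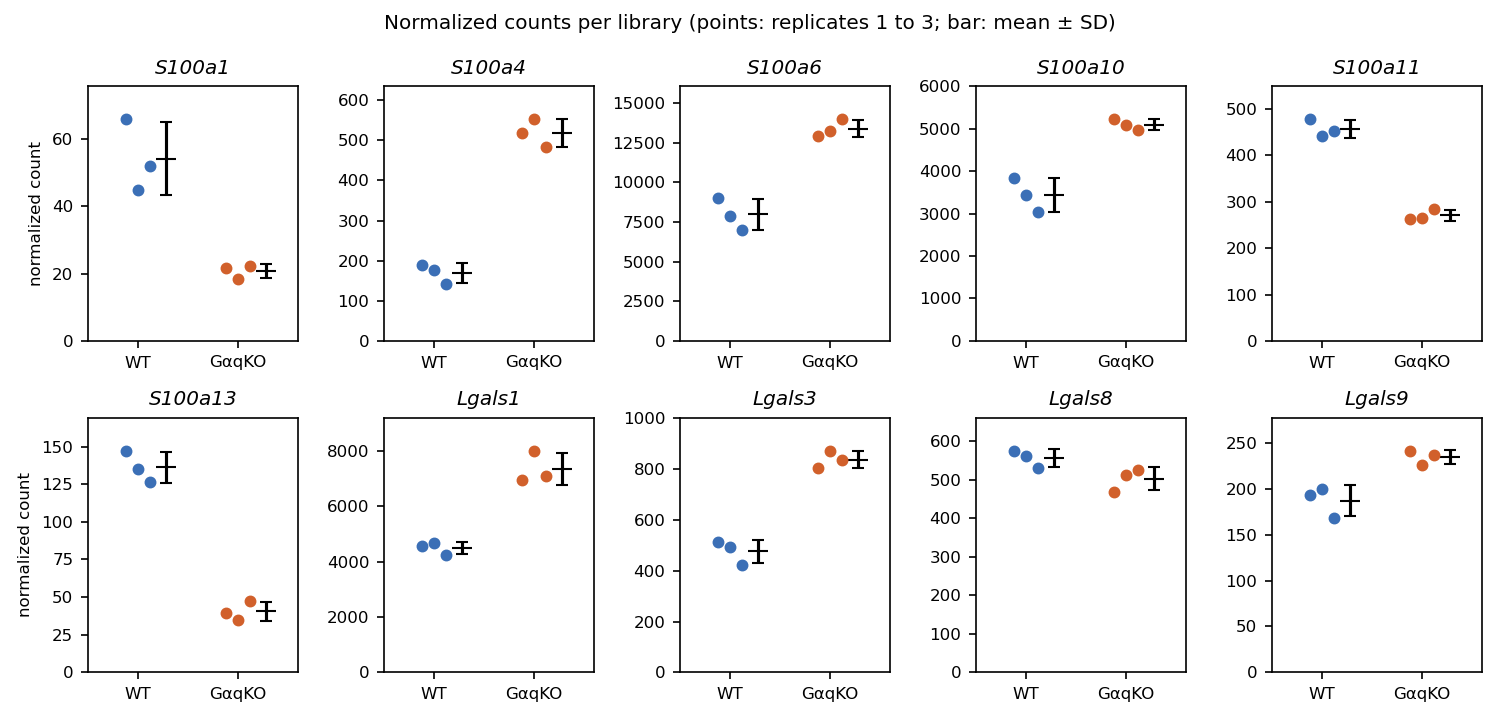
Normalized counts of the 10 genes in each library, with a separate axis from 0 for each gene; points are the WT (blue) and GαqKO (orange) replicates and the bar is the mean ± SD of 3 libraries. S100a4 rose from 169.8 to 517.8 and S100a13 fell from 136.2 to 40.5 in the mean, while the Lgals8 groups lay side by side at 555.7 and 502.9.

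The promoter windows of 3 S100 genes are shown. S100a4 rose most of the 10 genes, S100a6 had the highest level per kb of exon, and S100a11 is the gene that fell without sharing exon bases with another gene of the table. The windows lie directly upstream of the canonical GENCODE start in GRCm39, on the plus strand, at chr3:90510925-90511073 for S100a4, chr3:90519990-90520139 for S100a6 and chr3:93427527-93427676 for S100a11. They are read 5′ to 3′, and capitals mark a TATA box (TATAAA) in S100a4 and an AP-1 site (TGACTCA) in S100a11, the latter read on the opposite strand. None of these windows overlaps an annotated exon, and that of S100a4 was shortened to 149 bases to keep it so.
S100a4: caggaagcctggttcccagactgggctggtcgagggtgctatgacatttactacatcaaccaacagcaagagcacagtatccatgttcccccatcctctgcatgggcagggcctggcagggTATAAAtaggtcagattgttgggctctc
S100a6: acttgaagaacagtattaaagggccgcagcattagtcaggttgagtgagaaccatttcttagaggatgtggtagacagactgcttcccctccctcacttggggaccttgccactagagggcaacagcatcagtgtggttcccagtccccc
S100a11: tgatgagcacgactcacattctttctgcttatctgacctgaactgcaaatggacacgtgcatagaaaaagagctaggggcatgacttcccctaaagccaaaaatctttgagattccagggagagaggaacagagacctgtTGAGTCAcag

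The TATA box of S100a4 begins 29 bases before the start. The AP-1 match of S100a11 lies 10 bases before its start. Over windows of 150 bases upstream of 14058 genes tested, searched on both strands, 4.31% held TATAAA and 1.90% held TGACTCA, against 1 and 1 of the 9 genes searched here. GC boxes (GGGCGG) were found in 1 of the 9, Lgals3, and in 41.8% of all windows. The TEAD motif CATTCC was found in 0 of the 9 and in 6.57% of all. These searched motifs do not overlap each other in these windows. Of the 9 windows of 150 bases, those of S100a1, Lgals8 and Lgals3 had 150, 149 and 76 bases in annotated exons. A match describes letters in the window only.

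Of the 6 listed S100 genes, S100a4 rose most. It encodes a calcium-dependent binder of non-muscle myosin that affects cell motility, and its gene (ENSMUSG00000001020.9) lies on chromosome 3 from 90511074 to 90513354. The WT libraries had 189.0, 177.8 and 142.5 normalized counts and the GαqKO libraries 517.4, 552.7 and 483.4. The lowest GαqKO library was thus above every WT library by a wide margin. The means were 169.8 ± 24.3 and 517.8 ± 34.7 (n = 3, SD), a ratio of 3.05 with a log2 fold change of 1.61 (standard error, SE, 0.108, adjusted p = 1.47e-08, limma). Of its exon bases, 33.3% also belong to Gm42674, a gene on the same strand that had 6.497 ± 4.46 and 5.72 ± 3.70 normalized counts (n = 3, SD). In turn, 100.0% of the Gm42674 exon bases lie in exons of other genes. How reads of the shared bases were counted is not stated, so the S100a4 counts may be too low.

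S100a6 (ENSMUSG00000001025.9; chromosome 3, 90520140 to 90535843) encodes calcyclin, which binds annexins and the calcyclin-binding protein and is associated with proliferating cells. It had 9014.5, 7900.6 and 7025.2 normalized counts in WT and 12946.3, 13256.3 and 13979.6 in GαqKO. The GαqKO libraries lay closer together than the WT libraries and above all of them. The means were 7980 ± 997 and 13394 ± 530 (n = 3, SD), with a log2 change of 0.75 (SE 0.0705, adjusted p = 4.72e-07, limma).

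S100a10 (ENSMUSG00000041959.15; chromosome 3, 93462213 to 93474510) encodes p11, an S100 protein that needs no calcium and pairs with annexin A2 at the membrane, where it takes part in plasmin formation. Its values were 3847.8, 3451.5 and 3039.3 normalized counts in WT and 5225.7, 5097.9 and 4978.8 in GαqKO. WT replicate 1 was the highest of the WT libraries and still lay below the lowest GαqKO library. From 3446 ± 404 the mean rose to 5101 ± 123 (n = 3, SD), or 0.57 on the log2 scale (SE 0.0669, adjusted p = 4.57e-06, limma).

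Among the 6 listed S100 genes, S100a13 fell most. Its product is known for carrying FGF1 and interleukin-1α out of cells by a route that bypasses the Golgi. The gene (ENSMUSG00000042312.11; chromosome 3, 90416091 to 90431912) had 147.2, 135.0 and 126.2 normalized counts in WT and 39.4, 34.7 and 47.3 in GαqKO. No GαqKO library came near the WT range. The mean fell from 136.2 ± 10.6 to 40.5 ± 6.39 (n = 3, SD), or -1.73 on the log2 scale (SE 0.172, adjusted p = 8.76e-07, limma).

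S100a1 encodes a regulator of calcium release and uptake that is best known from heart and skeletal muscle. Its gene (ENSMUSG00000044080.10; chromosome 3, 90418340 to 90421848) had 65.8, 44.7 and 51.9 normalized counts in WT and 21.6, 18.5 and 22.2 in GαqKO. The groups were apart, and its WT libraries spread more than its GαqKO libraries. The means were 54.1 ± 10.7 and 20.8 ± 1.97 (n = 3, SD), and the log2 fold change was -1.33 (SE 0.238, adjusted p = 0.000237, limma).

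S100a1 and S100a13 lie on opposite strands of the same stretch, with 88.5% of the S100a1 exon bases inside S100a13 exons and 54.4% of the S100a13 exon bases inside S100a1 exons. The strand setting of the counting is not stated. Without strand, reads of the shared bases cannot be assigned to either gene, so the 2 decreases cannot be taken as separate measurements.

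S100a11 (ENSMUSG00000027907.5; chromosome 3, 93414382 to 93435293) encodes calgizzarin, a partner of annexins in membrane repair. It had 478.2, 441.0 and 451.9 normalized counts in WT and 263.9, 264.8 and 285.0 in GαqKO. Both groups were tight, and the highest GαqKO library was far below the lowest WT library. The mean went from 457.1 ± 19.1 to 271.2 ± 11.9 (n = 3, SD), or -0.75 on the log2 scale (SE 0.0769, adjusted p = 1.20e-06, limma). Its exons overlap no other gene of the table, but 3 near-identical copies exist elsewhere, of which Gm57150 is the longest match and had a mean of 2.35 normalized counts.

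Of the galectins, Lgals1, the gene of the homodimeric galectin-1, had the highest level per kb of exon. The gene (ENSMUSG00000068220.7) lies on chromosome 15 from 78810875 to 78814670. It had 4569.4, 4651.2 and 4224.1 normalized counts in WT and 6952.5, 7996.6 and 7089.5 in GαqKO. GαqKO replicate 2 stood highest, and the other GαqKO libraries were also above every WT library. The means were 4482 ± 227 and 7346 ± 567 (n = 3, SD), or 0.71 on the log2 scale (SE 0.0560, adjusted p = 8.06e-08, limma).

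Lgals3 encodes galectin-3, the galectin with a single sugar-binding domain and a long flexible tail, which forms lattices on branched N-glycans and gathers on damaged lysosomes. The gene (ENSMUSG00000050335.18; chromosome 14, 47605208 to 47623624) had 511.7, 493.5 and 424.4 normalized counts in WT and 802.9, 871.8 and 836.8 in GαqKO. The groups were well apart. The mean rose from 476.5 ± 46.0 to 837.2 ± 34.5 (n = 3, SD), or 0.82 on the log2 scale (SE 0.0746, adjusted p = 3.78e-07, limma), the largest among the 4 galectins.

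Lgals8 and Lgals9 encode galectins with a pair of sugar-binding domains in tandem, both of which take part in the response to damaged vesicles. Lgals9 (ENSMUSG00000001123.16; chromosome 11, 78853800 to 78875798) had 193.2, 200.1 and 167.9 normalized counts in WT and 241.3, 225.5 and 236.7 in GαqKO. The groups were close, with WT replicate 2 nearest to GαqKO replicate 2. The means were 187.1 ± 16.9 and 234.5 ± 8.15 (n = 3, SD), or 0.33 on the log2 scale (SE 0.103, adjusted p = 0.0124, limma). DESeq2 on the recovered reads of 5 libraries did not call it (adjusted p = 0.158).

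Lgals8 (ENSMUSG00000057554.14; chromosome 13, 12454282 to 12479840) had 575.3, 561.5 and 530.3 normalized counts in WT and 469.5, 513.4 and 525.7 in GαqKO. The lowest WT library and the highest GαqKO library were nearly equal. The means were 555.7 ± 23.1 and 502.9 ± 29.5 (n = 3, SD), with a log2 fold change of -0.14 (95% interval -0.29 to 0.00, adjusted p = 0.0794, limma). Without WT replicate 3 it was called lower, at -0.18 (adjusted p = 0.0453, limma).

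WT replicate 3 was the lowest WT library for 8 of the 10 genes, the exceptions being S100a1 and S100a11, which were lowest in WT replicate 2. The share of all genes tested that were lowest in WT replicate 3 was not counted. In that library the 3515 shortest genes (canonical transcripts up to 1759 bases) had a median log2 deviation of -0.046 from the WT mean. The 3516 longest genes had one of 0.053. Of the genes lowest in it, S100a10, S100a13 and Lgals8 have canonical transcripts of 3419, 4412 and 2845 bases, the others of 503 to 1546. A part of transcript length was not tested. Without WT replicate 3, the 9 calls remained. Log2 fold changes were then 1.49 for S100a4, 0.67 for S100a6, 0.48 for S100a10, 0.67 for Lgals1, 0.73 for Lgals3 and 0.25 for Lgals9 (adjusted p = 0.0498 for Lgals9, limma). S100a1, S100a11 and S100a13 stood at -1.35, -0.76 and -1.79 without it.

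Other genes of both families were measured beside these. Of 12 further S100 genes, 4 were tested. S100a16 was lower, at 159.4 ± 21.2 against 50.03 ± 15.5 normalized counts, and S100a3 was higher, at 15.9 ± 3.36 against 35.3 ± 5.86 (n = 3, SD), though DESeq2 on 5 libraries did not call S100a3 (adjusted p = 0.0638). S100a5 was also higher, from 8.4, 2.9 and 2.0 normalized counts in WT to 38.5, 32.4 and 36.3, but it entered the test only through the GαqKO libraries. S100a7a, at 13.1 ± 7.34 and 21.6 ± 0.815, did not pass (adjusted p = 0.0733, limma), though it did without WT replicate 3 (adjusted p = 0.0117, limma). S100a8, S100a7l2, S100g and S100z were listed at 0 in all 6 libraries.

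Of 6 further galectin-related genes in the table, 4 were tested. Lgals3bp, the gene of a secreted glycoprotein that binds galectins, rose from 106.5 ± 10.8 to 718.8 ± 44.5 normalized counts (n = 3, SD), or 2.75 on the log2 scale (SE 0.0974, adjusted p = 2.16e-11, limma). Lgalsl, whose product resembles galectins, fell from 1132 ± 90.9 to 627.5 ± 35.5, and Lgals2 from 62.6 ± 13.6 to 12.7 ± 4.90 (n = 3, SD). Lgals2 shares 67.2% of its exon bases with other genes, and would not have passed the filter on its GαqKO values alone (17.8, 8.1 and 12.1). Lgals4 had 14.2 ± 5.80 and 10.3 ± 0.176 and did not pass (adjusted p = 0.39, limma).

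**Figure D2:**
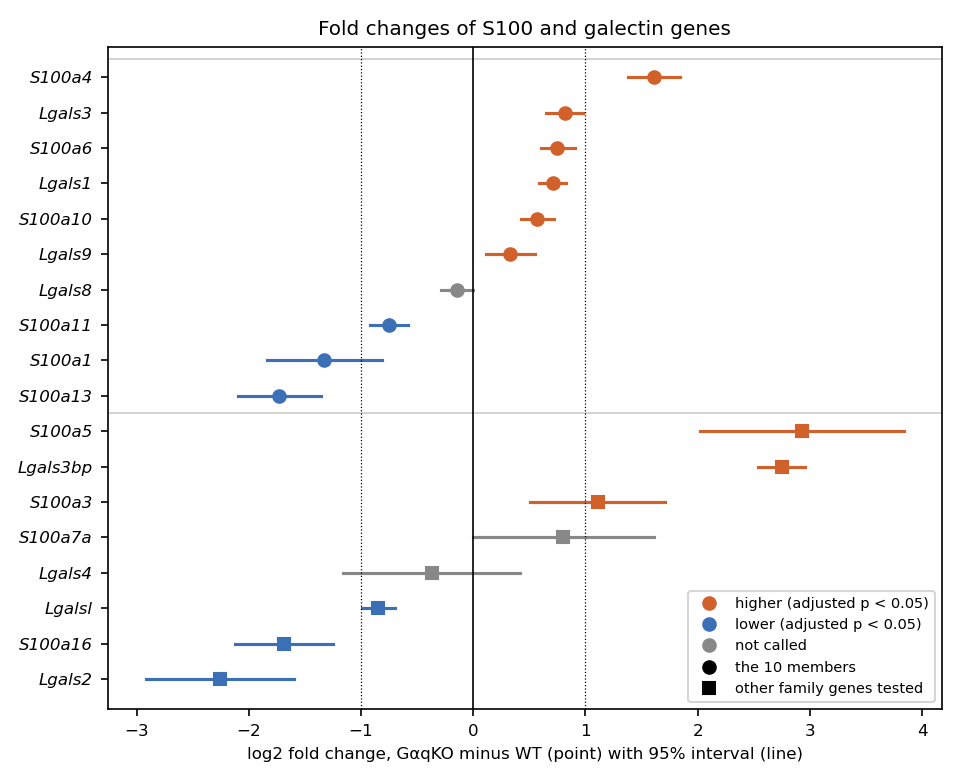
Log2 fold changes (GαqKO minus WT, points) with 95% intervals (lines) from limma for the 10 genes (circles) and the other S100 and galectin genes that were tested (squares); orange is higher, blue lower and grey not called, and dotted lines mark the fold threshold. Values ran from -1.73 for S100a13 to 1.61 for S100a4 among the 10 genes, and Lgals3bp stood at 2.75.

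All 6 S100 genes lie on chromosome 3, as most S100 genes do. Counted from the start of S100a13, S100a1 begins at 2.249 kb, S100a16 at 28.08 kb, S100a3 at 75.88 kb, S100a4 at 94.98 kb, S100a5 at 99.71 kb and S100a6 at 104.0 kb. At the S100a13 end the log2 fold changes were -1.73 for S100a13, -1.33 for S100a1, which shares exon bases with it, and -1.69 for S100a16. From S100a3 to S100a6 they were 1.11 for S100a3, 1.61 for S100a4 and 0.75 for S100a6, with 2.93 for S100a5, which passed the filter through the GαqKO libraries alone. S100a11 and S100a10 lie together about 3 Mb away, at 2998 and 3046 kb, and had opposite signs (-0.75 and 0.57). This order was seen after the values, and no test of it was made.

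**Figure D3:**
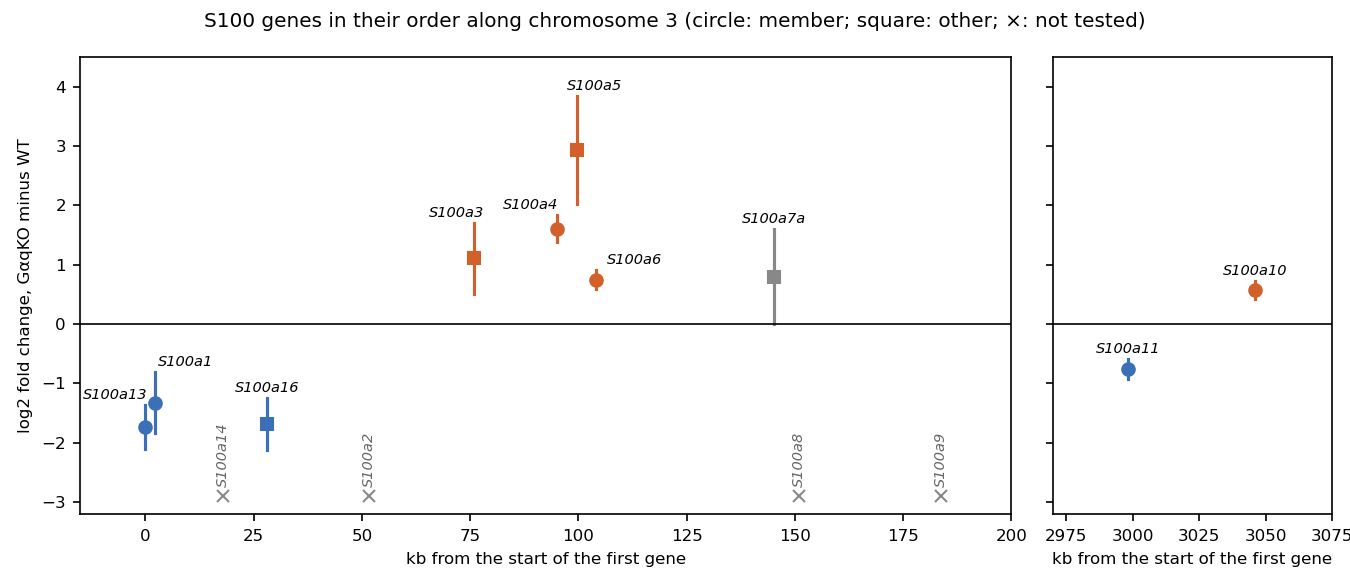
Log2 fold change with its 95% interval (vertical axis) against the distance in kb from the start of S100a13 (horizontal axis, broken between the 2 panels) for S100 genes on chromosome 3; circles are the 6 S100 genes described here, squares other S100 genes, and crosses at the foot genes that were not tested. S100a13, S100a1 and S100a16 lie below 0, S100a3, S100a4, S100a5 and S100a6 above it.

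To compare levels between genes, normalized counts were divided by exon length. That length included exon bases shared with other genes, whose reads may be missing from the counts. The levels per kb of S100a4, S100a1 and S100a13, and their shares below, may therefore be too low. In WT, S100a6 was highest with 3393 ± 424 normalized counts per kb, followed by Lgals1 with 2650 ± 134 and S100a10 with 496.0 ± 58.2 (n = 3, SD). Lgals3, S100a4 and S100a11 came next, with means of 207.0, 187.0 and 171.0 per kb, and each of these neighbours overlapped the next in their libraries. Lgals8, Lgals9, S100a13 and S100a1 closed the order without overlap, at 101.0, 82.4, 28.9 and 18.7 per kb.

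In the GαqKO libraries S100a6, Lgals1 and S100a10 again led, with 5695 ± 225, 4344 ± 336 and 735.0 ± 17.8 normalized counts per kb (n = 3, SD). S100a4 now stood above Lgals3, at 570.0 ± 38.2 against 363.0 ± 14.9 per kb, without overlap. Lgals9 and S100a11 overlapped at 103.0 ± 3.59 and 101.0 ± 4.47, Lgals8 followed at 91.6 ± 5.38, and S100a13 and S100a1 overlapped at 8.60 ± 1.36 and 7.17 ± 0.680. With the length of the canonical transcript instead, S100a1 stood above S100a13 in both groups, and in GαqKO Lgals8 stood above Lgals9 and S100a11. Because S100a1 and S100a13 share exon bases, their order cannot be settled from these counts.

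**Figure D4:**
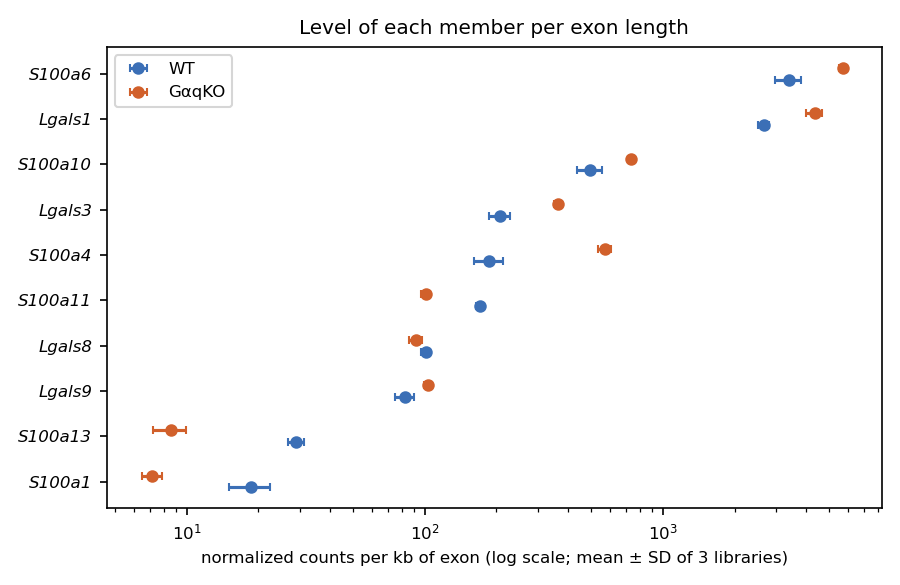
Mean normalized counts per kb of exon (horizontal log axis) with SD over 3 libraries for each gene in WT (blue) and GαqKO (orange), in the order of the WT levels. S100a6 and Lgals1 lie far to the right of the other genes in both groups, S100a6 at 3393 and 5695 per kb, and S100a1 lies lowest at 18.7 and 7.17. Exon bases shared with other genes were kept in the length, so S100a1, S100a13 and S100a4 may stand too low.

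Summed per kb, the 6 S100 genes had 4827.9, 4261.0 and 3795.3 in WT and 6941.3, 7091.8 and 7317.4 in GαqKO, a log2 difference of 0.74. The sum of the 4 galectins was 3114.0, 3155.0 and 2852.6 in WT and 4651.5, 5299.8 and 4755.4 in GαqKO, a log2 difference of 0.69. Both sums were higher in every GαqKO library than in any WT library, and the exact two-sided permutation test gave p = 0.1 for each, the smallest that 3 against 3 libraries allow.

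The sums mostly followed their leading gene. Per kb of exon, S100a6 made up 79.0% ± 0.36 of the S100 sum in WT and 80.0% ± 1.1 in GαqKO (n = 3, SD). Lgals1 made up 87.2% ± 0.40 and 88.6% ± 0.56 of the galectin sum (n = 3, SD). Without division by length these shares were 65.1% and 69.2% for S100a6 and 78.6% and 82.3% for Lgals1. Below them the make-up shifted. The share of S100a4 was 4.35% ± 0.23 in WT and 8.02% ± 0.67 in GαqKO, and that of S100a11 was 4.01% ± 0.39 and 1.43% ± 0.030 (n = 3, SD). The share of Lgals8, which itself did not pass the test, went from 3.33% ± 0.078 to 1.87% ± 0.13 (n = 3, SD). Without division by length the shares were 1.38% and 2.68% for S100a4, 3.76% and 1.40% for S100a11, and 9.75% and 5.65% for Lgals8.

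Targets and receptors of S100 proteins moved in both directions. Of 33 genes listed, 26 were tested, 8 higher and 12 lower, beside 31.8% and 34.1% of all genes tested, with a median log2 fold change of -0.15. Among genes averaging 100 or more normalized counts, the largest changes were in Sort1, a sorting receptor (-3.03), Asic1, an acid-sensing channel (2.37), Plat, the tissue plasminogen activator (-1.78), and Anxa6, an annexin (-1.64). Several direct partners, singled out after their values were seen, can be set beside their S100 genes. Anxa2, the partner of S100a10, rose from 2511 ± 54.3 to 3109 ± 43.3 normalized counts (n = 3, SD), a smaller change (0.31) than that of S100a10. Myh9, the myosin bound by the S100a4 product, fell from 12745 ± 1040 to 9470 ± 286, and Cacybp, the partner of S100a6, had 2273 ± 128 and 2262 ± 82.9 (n = 3, SD, adjusted p = 0.925, limma).

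Further partners and receptors were also picked after their values were seen. Of the targets of the S100a1 product, the calcium release channel gene Ryr1 rose from 10.1 ± 1.96 to 87.1 ± 14.4 normalized counts (n = 3, SD), having passed the filter only through the GαqKO libraries, and the calcium pump gene Atp2a2 had 5909 ± 137 and 5570 ± 92.7 (adjusted p = 0.072, limma). Fgf1, the cargo of S100a13, was listed at 0 in all 6 libraries, as was Anxa1, a partner of S100a11. Whether a listed 0 reflects absent RNA or how reads were counted was not tested. The receptor genes Ager and Tlr4 were lower, at -0.72 and -0.22 on the log2 scale (adjusted p = 0.0404 and 0.0425, limma).

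Glycoproteins that carry galectin ligands moved in both directions. Of 32 listed, 28 were tested, 11 higher and 14 lower, beside 31.8% higher and 34.1% lower over all genes tested, and the median log2 fold change was -0.14. The 4 called genes with the largest changes, among genes averaging 100 or more normalized counts, were all lower. Mcam, an adhesion molecule of the immunoglobulin family, fell from 734.3 ± 62.9 to 7.62 ± 2.72 normalized counts, Itga7, a laminin-binding integrin chain, from 705.2 ± 35.0 to 17.8 ± 5.57, and Lama5, a laminin chain, from 779.0 ± 102.0 to 24.99 ± 10.5 (n = 3, SD). Mcam would not have passed the filter on its GαqKO values alone (4.7, 8.1 and 10.1). Thbs1, a matrix glycoprotein, fell by 2.79 on the log2 scale.

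Enzymes that build, branch and cap galectin-binding glycans were also counted. Of 20 listed, 18 were tested, 10 higher and 6 lower, beside 31.8% and 34.1% of all genes tested, with a median of 0.19. Gcnt1, which starts core 2 branches on O-glycans, rose from 692.2 ± 7.17 to 2587 ± 143 normalized counts (n = 3, SD). St3gal6, a sialyltransferase, and Fut8, the core fucosyltransferase, rose by 1.40 and 0.96 on the log2 scale. B4galt1, which adds the galactose that galectins recognise, fell from 2138 ± 34.0 to 1038 ± 64.4 (n = 3, SD). Mgat5, the branching enzyme tied to galectin-3 lattices and named here after its value was seen, had 543.8 ± 58.9 and 472.8 ± 31.6 and did not pass the test (adjusted p = 0.0526, limma).

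Genes that act with galectins at damaged lysosomes also moved in both directions. Of 20 listed, 16 were tested, 6 higher and 7 lower, beside 31.8% and 34.1% of all genes tested, with a median of 0.03. Optn, an autophagy receptor, fell from 626.5 ± 33.9 to 256.7 ± 23.6 normalized counts (n = 3, SD), and Calcoco1 fell by 0.86 on the log2 scale. Trim16, which binds galectin-3, and Map1lc3b, an autophagosome protein, rose by 0.42 and 0.36. The count of higher genes in this list was 2 without WT replicate 2 and 3 without GαqKO replicate 2.

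**Figure D5:**
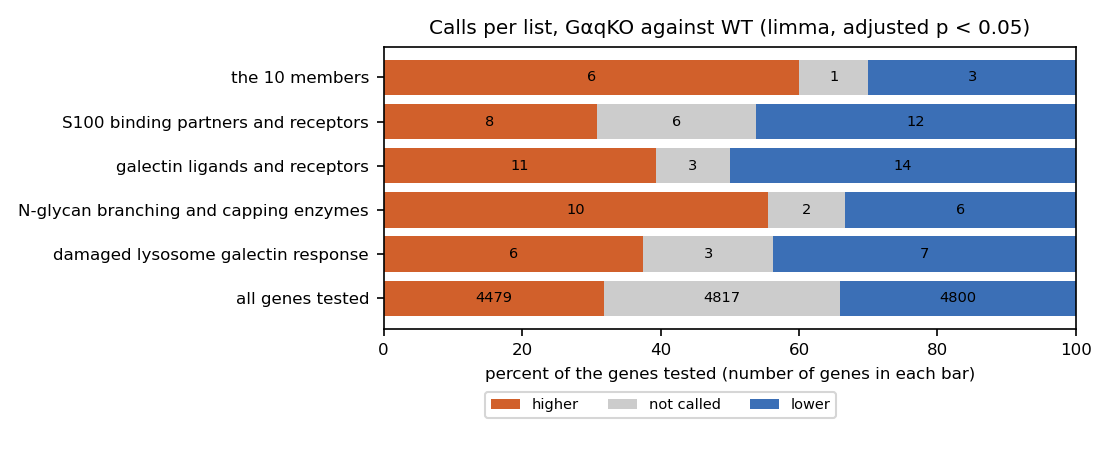
Percent of the tested genes of each list that were higher (orange), not called (grey) or lower (blue) in GαqKO, with the number of genes printed in each bar. The 10 genes had 6 higher and 3 lower, the glycan enzymes 10 and 6 of 18, and all 14096 genes tested 4479 and 4800.

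The genes whose pattern over the 6 libraries was closest to that of S100a13 were Entpd5, Nfil3 and Snapc5. Their root mean square differences from it, on log2 values taken relative to each WT mean, were 0.0672, 0.081 and 0.0829. Entpd5 went from 199.8 ± 15.2 to 57.6 ± 5.23 normalized counts, Nfil3 from 1220 ± 120 to 379.1 ± 28.2, and Snapc5 from 237.7 ± 25.8 to 72.9 ± 5.35 (n = 3, SD). They were picked for this likeness, so no test was made.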

How the data were processed

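RNA of 6 MEF cultures, 3 labelled WT and 3 labelled GαqKO, was poly-A selected and sequenced as stranded paired-end libraries. The authors aligned the reads with Rbowtie2 to GRCm39, used featureCounts with GENCODE M32 for counts per gene and ran DESeq2. Bowtie 2 does not split reads over introns, which lowers counts of genes with short exons. The deposited values are a signal, namely normalized counts (reads divided by 1 size factor per library). Versions and a low-count filter are not given in the sources used here.

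Symbols, exon lengths and overlaps came from GENCODE M39, which matched 56310 of 56953 identifiers. The main test was limma 3.58.1 (R 4.3.3) with a trend in the prior spread, on log2(normalized count + 1), over genes reaching 10 normalized counts in 3 or more libraries, and p-values were adjusted by Benjamini-Hochberg. Fold changes on this scale understate the change of low genes. Reads were recovered for 5 libraries, where 100.0% of nonzero values lay within 0.1 read of a whole multiple of 1 step, and edgeR 4.0.16 and DESeq2 1.42.0 were run on them. In simulated data limma recovered 98 of 100 genes changed 1.5-fold and 100 of 100 changed 2-fold, with 12 false calls among 13681 genes. DESeq2 on 5 simulated libraries recovered 78 of 100 genes changed 1.5-fold. The simulation gave every gene the same spread beyond sampling noise, so these rates need not hold for the real libraries.

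The 10 genes and all gene lists were chosen with earlier results of these data known. Named in the text are the 10 genes, Gnaq and Gna11, and the other S100 and galectin genes tested. Up to 4 called genes per list with the largest change and a mean of at least 100 are named too. Also named are the 3 genes closest in pattern to S100a13 among genes with such a mean, and genes said to be chosen after their values were seen. Python 3.11.15, scipy 1.17.1 and matplotlib 3.10.9 were used. Motifs were searched in the promoter windows of 9 of the 10 genes, of which 3 are printed, and the other gene's window is not reported here.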

Additional observations from a re-analysis of the deposited data

How the results depend on the processing

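The 16 alternatives (pseudocounts 0.5 and 5, no filter, a filter in all 6 libraries, TMM and upper quartile scaling, no trend, replicate block, each library left out, and edgeR and DESeq2 on 5 libraries) gave 160 values for the 10 genes. Of these, 158 kept their direction and side of the threshold and 0 reversed. Lgals9 was not called by DESeq2 (adjusted p = 0.158; 0.0103 to 0.158 over its alternatives) and Lgals8 was called without WT replicate 3 (adjusted p = 0.0453; 0.0453 to 0.288); the cause was not tested. The replicate numbers did not pair the libraries (same-number correlations of deviations -0.0453, -0.148 and -0.0638), and with the replicate block 6 of the 10 genes were higher, 3 were lower and 3 passed the fold threshold, with 8962 calls over all genes against 9279. Of 38 other named genes that were put through the alternatives, S100a3 was not called by DESeq2 (adjusted p = 0.0638) and S100a7a was called without WT replicate 3. The genes picked after their values were seen, among them Ager, Tlr4 and Mgat5 near the threshold, were not put through them. The summed S100 level differed by 0.65 to 0.82 and the galectin level by 0.63 to 0.72 (log2) over alternatives, of which the canonical transcript length was chosen after seeing the data. The S100a5 call could not be made without any 1 GαqKO library, because too few libraries then passed the filter. The share of all genes called fell to 36.9% of 26091 without a filter and to 41.9% of 17672 in DESeq2.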
